A study of Sus scrofa with 3 samples.

Results

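The microRNAs (miRNAs) miR-221 and miR-222 were followed in livers taken from male pigs at 90 days after birth. Members were all mature names in the count files that read miR-221 or miR-222 once the species prefix and the arm ending were removed. That gave 3 of 411 mature names, namely ssc-miR-221-3p and ssc-miR-221-5p, the opposite arms of the precursor mir-221, and ssc-miR-222, listed without an arm on the precursor mir-222. Small RNA of each liver had been sequenced in 1 library per breed. The breeds were Enshi black, a domestic pig of China, Large White, raised commercially in Europe, and Chinese wild boar, an undomesticated pig. The labels name no treatment and no genotype beyond the breed, and mention 3 male pigs for the 3 libraries. With 1 library per breed there was no spread between animals to test against, so breed and individual animal cannot be told apart, no p-value was computed, and every interval below is a 95% interval that covers counting error only.

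miRNAs are short RNAs that guide Argonaute proteins to messenger RNAs, mainly through a seed near their 5′ end, and lower the output of those messengers. miR-221 and miR-222 are known to come from neighbouring hairpins on the X chromosome, to be made from a shared transcript, and to carry the same seed on their main strands. Their best known targets are CDKN1B and CDKN1C, inhibitors of the cell cycle, and KIT, a growth factor receptor of blood-forming and endothelial biology. In liver they are known from regeneration, from activated stellate cells during fibrosis and from hepatocellular carcinoma, and in normal tissue they are abundant in endothelium. In the RefSeq gene table of the pig assembly Sscrofa 11.1, MIR221 and MIR222 were next to each other on chromosome X with 0 annotated genes between them. The deposited counts were made on another build, Sscrofa 10.2, so no position is given.

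The libraries held 7730944 miRNA reads for Enshi black, 7343045 for Large White and 7824848 for wild boar after names that repeat the same reads were left out. Of the liver markers, miR-122 alone took 34.2% to 41.4% of the reads of a library. The 6 hepatocyte marker miRNAs together took 48.1% of the Enshi black, 62.8% of the Large White and 54.2% of the wild boar reads. Levels are given as CPM, reads per 1000000, scaled by the trimmed mean of M-values (TMM), which assumes that most miRNAs do not differ, or as CPM of the library total. On library totals the median of all 208 miRNAs compared had a log2 ratio of 0.60 for Enshi black over Large White, 0.46 for wild boar over Large White and 0.15 for Enshi black over wild boar. The same medians after TMM were -0.04, -0.02 and -0.01.

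miR-221-3p was the most abundant member in each library, with miR-222 below it and miR-221-5p far below both. The wild boar liver held the most miR-221-3p and the Large White liver the least, under both scalings. miR-222 was also scarcest in the Large White liver, but stood at similar levels in the other two. No read of a member was divided between names: all member counts were whole numbers, unlike those of miRNAs that share reads with a relative.

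miR-221-3p, the main strand of mir-221, had 31352 reads in Enshi black, 16918 in Large White and 42527 in wild boar. That is 3375 CPM (counting interval 3338 to 3412), 2983 CPM (2938 to 3028) and 5044 CPM (4996 to 5092) after TMM, in the same order. On library totals it is 4055, 2304 and 5435 CPM. The wild boar library was highest and the Large White library lowest on either scale, with intervals that did not overlap. Ranked by reads, miR-221-3p came 35th in Enshi black, 40th in Large White and 29th in wild boar.

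miR-222 had 13982 reads in Enshi black, 4650 in Large White and 13879 in wild boar. After TMM these were 1505 CPM (1480 to 1530), 820 CPM (796 to 844) and 1646 CPM (1619 to 1674). On library totals they were 1809 CPM (1779 to 1839), 633 CPM (615 to 652) and 1774 CPM (1744 to 1803). The Large White library was lowest on both scales. Which of the other two came first depended on the scaling, and on library totals their intervals overlapped.

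miR-221-5p, the minor strand of mir-221, had 584 reads in Enshi black, 260 in Large White and 687 in wild boar. Its TMM levels were 62.9 CPM (57.9 to 68.2), 45.8 CPM (40.4 to 51.8) and 81.5 CPM (75.5 to 87.8). The order was that of miR-221-3p, and after TMM the 3 intervals did not overlap. On library totals they were 75.5 CPM (69.5 to 81.9), 35.4 CPM (31.2 to 40.0) and 87.8 CPM (81.4 to 94.6), where those of Enshi black and wild boar overlapped slightly. The 2 abundant members together took 0.586% of the Enshi black, 0.294% of the Large White and 0.721% of the wild boar reads.

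**Figure D1:**
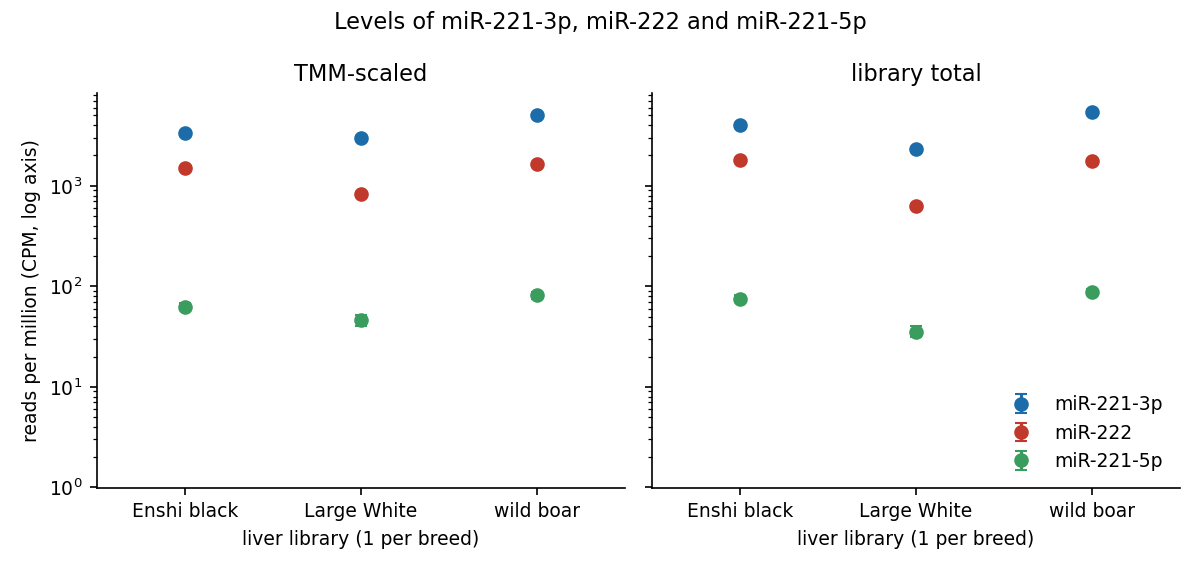
Reads per 1000000 (CPM, log axis) of miR-221-3p, miR-222 and miR-221-5p in each of the 3 liver libraries, after TMM (left) and on library totals (right). Points are single libraries and bars are counting intervals, mostly smaller than the points. Each member is lowest in the Large White library on both scales.

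Between the wild boar and Large White livers, miR-222 stood 2.01-fold higher in the wild boar (interval 1.94 to 2.08). A miRNA was called where the libraries were at least 2-fold apart and the interval left out 1, and by this rule miR-222 was higher, although its interval reached below 2. The call was lost, at a log2 ratio of 0.96, when TMM was computed over miRNAs of at least 10 mean CPM only. It was the lowest of the 24 miRNAs called higher in this pair. miR-221-3p had a ratio of 1.69 (1.66 to 1.72) and miR-221-5p of 1.78 (1.54 to 2.06), both short of the call. So 1 of 3 members was called higher, where 11.5% of the 208 miRNAs were. On library totals the ratios were 2.36 (2.32 to 2.40) for miR-221-3p, 2.48 (2.15 to 2.87) for miR-221-5p and 2.80 (2.71 to 2.90) for miR-222. All 3 were then called higher, against 21.6% of all miRNAs compared on that scale. In the order of ratios, which no scaling changes, miR-222 was the 24th from the top, miR-221-5p the 29th and miR-221-3p the 34th of 208.

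Between the Enshi black and Large White livers the members spread further apart. miR-222 had a TMM ratio of 1.84 (1.78 to 1.90), miR-221-5p of 1.37 (1.18 to 1.59) and miR-221-3p of 1.13 (1.11 to 1.15). None of the 3 was called, where 2.88% of miRNAs were called higher. miR-222 nevertheless had the 10th highest ratio of 208 in this pair, while miR-221-5p was the 46th and miR-221-3p the 78th. On library totals miR-222 was 2.86-fold higher in the Enshi black library (2.76 to 2.95) and miR-221-5p 2.13-fold higher (1.84 to 2.48), and both were called. miR-221-3p had 1.76 (1.73 to 1.79) there and was not called, where 27.4% of all miRNAs were called higher.

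Between the Enshi black and wild boar livers no member was called on either scale. The TMM ratio of Enshi black over wild boar was 0.669 (0.659 to 0.679) for miR-221-3p, 0.772 (0.690 to 0.863) for miR-221-5p and 0.914 (0.893 to 0.936) for miR-222. Read the other way, miR-221-3p stood at 1.49 times the Enshi black level in the wild boar liver. On library totals miR-222 had a ratio of 1.02 with an interval of 0.996 to 1.04, so its direction in this pair was not resolved, while miR-221-3p had 0.746 (0.735 to 0.757). In this pair 6.25% of the miRNAs were called higher and 6.25% lower after TMM, and 7.21% higher and 3.37% lower on library totals. By ratio miR-221-3p was the 183rd, miR-221-5p the 163rd and miR-222 the 127th from the top.

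**Figure D2:**
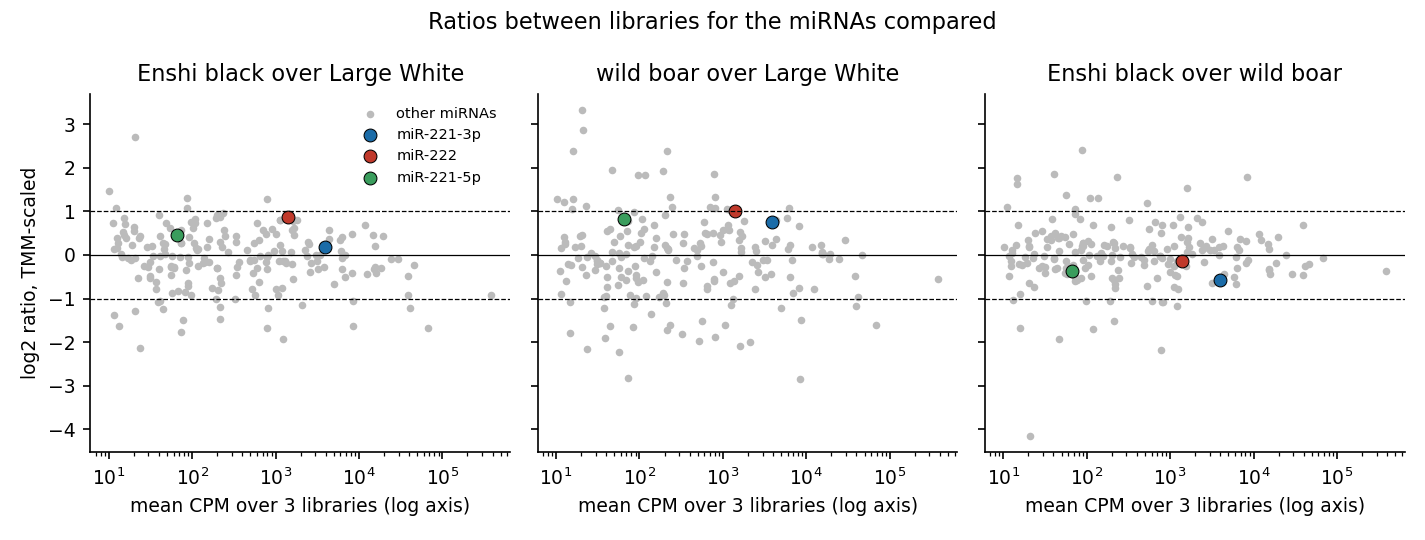
TMM-scaled log2 ratio of each of 208 miRNAs (grey) against its mean CPM (log axis) for each pair of liver libraries, with miR-221-3p, miR-222 and miR-221-5p coloured. Dashed lines mark 2-fold. Only miR-222 in wild boar over Large White lies on the line, at a log2 ratio of 1.01.

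The proportion of the abundant members to each other needs no scaling between libraries. The Enshi black liver held 2.24 reads of miR-221-3p per read of miR-222 (2.20 to 2.29), the Large White liver 3.64 (3.52 to 3.76) and the wild boar liver 3.06 (3.01 to 3.12). These intervals did not overlap, so the neighbours miR-221-3p and miR-222 did not keep a constant proportion of reads. The proportion was 1.62 times as high in Large White as in Enshi black (1.56 to 1.69), 1.37 times as high in wild boar as in Enshi black (1.33 to 1.40) and 1.19 times as high in Large White as in wild boar (1.14 to 1.23). Small RNA ligation favours some sequences over others, so a read ratio within a library is not a ratio of molecules, and whether that preference differed between libraries was not tested.

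The use of the arms of mir-221 differed less. miR-221-5p made up 1.83% of the reads of both arms for Enshi black (1.68 to 1.98, an exact Clopper-Pearson interval), 1.51% for Large White (1.34 to 1.71) and 1.59% for wild boar (1.47 to 1.71). The Large White and wild boar shares were not distinguishable, with wild boar odds 1.05 times those of Large White (0.910 to 1.21). The Enshi black odds were 1.21 times those of the Large White (1.05 to 1.40) and 1.15 times those of the wild boar library (1.03 to 1.29). Among 57 precursors with both arms named and 100 or more reads per library over both arms together, mir-221 had the 7th narrowest range. Its log2 odds of the 5p arm ranged over 0.28 between libraries, against a median of 0.67. Where an arm has few reads, counting error widens the range. In mir-194b, mir-181d and mir-4334 an arm had no reads in any library, so their ranges rest on the 0.5 added to counts. The rank is therefore a description only. The 3p arm of mir-221 was the main one in each library, as it was for 24 of the 57 precursors.

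**Figure D3:**
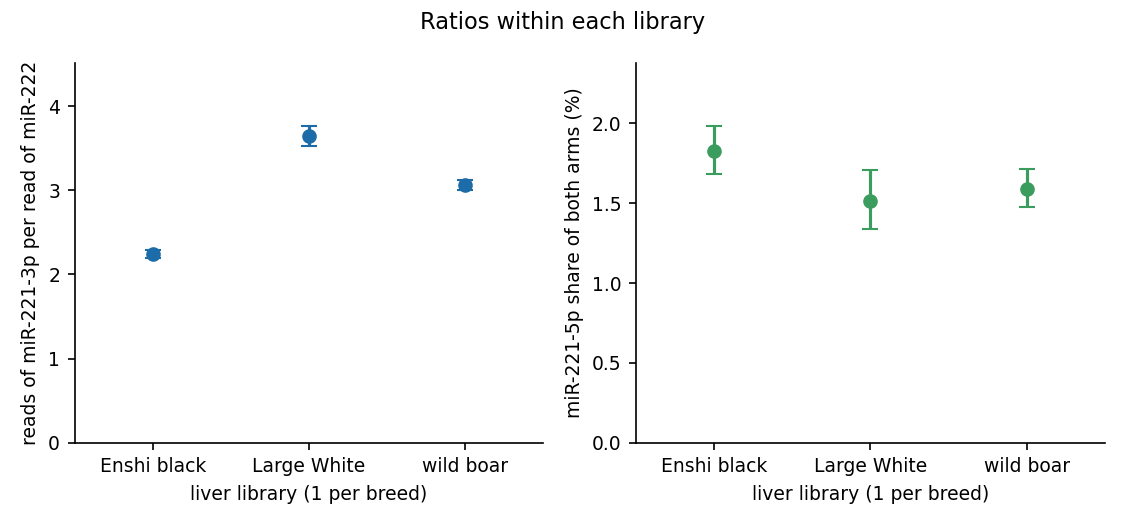
Reads of miR-221-3p per read of miR-222 (left) and the share of miR-221-5p among the reads of both arms of mir-221 in percent (right) in each liver library, with counting intervals as bars. The proportion is lowest in the Enshi black library at 2.24 and highest in the Large White at 3.64, and the arm shares lie between 1.51% and 1.83%.

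Other miRNAs known to share a transcript gave a scale for the unequal ratios of miR-221-3p and miR-222. The gap between their log2 ratios was -0.70 in Enshi black over Large White, -0.25 in wild boar over Large White and -0.45 in Enshi black over wild boar. Of 21 such pairs listed, 17 had both miRNAs in the comparison, and by its widest gap the miR-221-3p and miR-222 pair was the 9th from the narrowest, at the median of 0.70. The narrowest gap was that of miR-99a and let-7c at 0.10, followed by miR-23b and miR-27b-3p at 0.12. The widest was that of miR-29a and miR-29b at 1.91. Several of these miRNAs have more than 1 genomic copy or share reads with a relative, which members of the miR-221 and miR-222 pair do not, so the gaps are a description only.

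**Figure D4:**
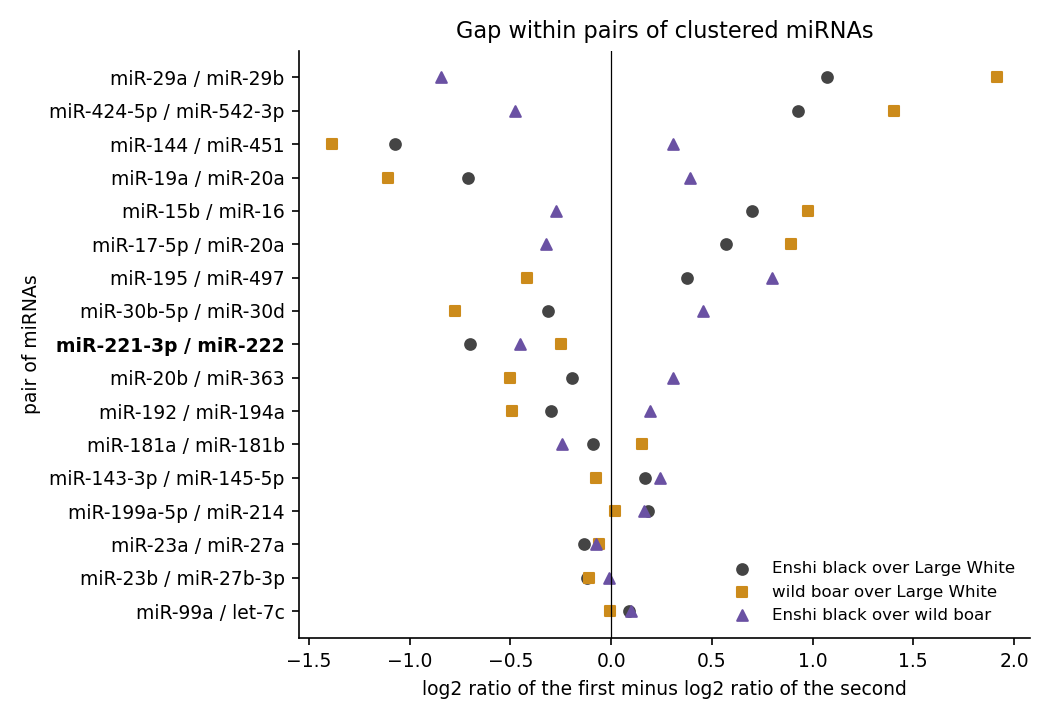
Difference between the log2 ratios of the first and the second miRNA in each of 17 pairs known to share a transcript, for the 3 pairs of libraries (symbols), ordered by the widest gap. The miR-221-3p and miR-222 pair (bold) lies to the left of 0 in each comparison, at -0.70, -0.25 and -0.45.

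The cell types of liver differ in their miRNAs, and in bulk tissue fewer cells of a type cannot be told apart from less RNA per cell. Marker miRNAs of several cell types differed between the libraries too. Of 6 hepatocyte markers, miR-885-5p, miR-192 and miR-101 were called lower in Enshi black than in Large White and miR-101 lower in wild boar than in Large White, where 10.1% and 13.5% of all miRNAs were called lower. On library totals miR-101 was the one hepatocyte marker called in either pair, lower in both, where 2.88% and 9.13% were. The list had summed TMM levels of 400603 CPM in Enshi black, 812938 CPM in Large White and 502959 CPM in wild boar. Of 9 endothelial markers only miR-10b was called higher in Enshi black over Large White, with a median log2 ratio of 0.68 over the list, and none was called in wild boar over Large White, with a median of 0.45. Their summed levels were 35859, 30447 and 34014 CPM in the order Enshi black, Large White, wild boar. These sums rest largely on miR-99a, which alone had 12962, 16194 and 16397 CPM. It was the only endothelial marker with a negative log2 ratio in Enshi black over Large White, at -0.32. On library totals 8 of the 9 were called higher in Enshi black over Large White and 2 of 9 in wild boar over Large White. Against the background the first count was high, at 27.4% of all miRNAs, and the second close to it, at 21.6%. After TMM the backgrounds were 2.88% and 11.5%. The 5 smooth muscle and stellate markers had medians of 0.28 and 0.10 for these pairs, with no call after TMM and summed levels of 49324, 38412 and 40349 CPM. On library totals miR-143-3p and miR-199a-5p of this list were called higher in Enshi black over Large White, where 27.4% of all miRNAs were.

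Blood cell markers took another course. Of 7 leucocyte markers, 6 were in the files, and after TMM 5 of these were called lower in wild boar than in Large White and 5 higher in Enshi black than in wild boar, against 13.5% and 6.25% of all miRNAs. In Enshi black over Large White miR-146b was called higher and miR-142-3p lower, where 2.88% of all miRNAs were called higher and 10.1% lower. The leucocyte markers summed to 11029 CPM in Enshi black, 20868 CPM in Large White and 3679 CPM in wild boar. So the library with the most miR-221-3p had the fewest reads of leucocyte markers. Of the 3 red cell markers, miR-144 was called lower in both Enshi black and wild boar than in Large White, where 10.1% and 13.5% of all miRNAs were. The red cell list summed to 4114, 5324 and 3114 CPM after TMM. On totals the order differed, with sums of 4944, 4112 and 3356 CPM, and miR-144 in Enshi black over Large White had a log2 ratio of -0.57 and was not called. On library totals 3 leucocyte markers and miR-144 were still called lower in wild boar than in Large White, where 9.13% of all miRNAs were. As 1 of 6 leucocyte markers, miR-146b was called higher in Enshi black than in Large White, where 27.4% of all miRNAs were. In Enshi black over wild boar 5 leucocyte markers stayed higher on totals, against 7.21% of all miRNAs. No marker found in the files was at 0 in any library. What part cell composition has in the levels of miR-221 and miR-222 was not tested.

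Set against the marker reads of their own library, the members again need no scaling, and the outcome differed with the cell type. Per 1000 reads of the hepatocyte markers, miR-222 had 3.76 reads in Enshi black, 1.01 in Large White and 3.27 in wild boar, and miR-221-3p had 8.42, 3.67 and 10.03. Against the endothelial markers the contrast was smaller. miR-222 had 42.0, 26.9 and 48.4 reads per 1000 endothelial marker reads, which is 1.56 times as many in Enshi black as in Large White (1.51 to 1.61) and 1.80 times as many in wild boar as in Large White (1.74 to 1.86). miR-221-3p had 94.1, 98.0 and 148.3 per 1000, and so was slightly lower in Enshi black than in Large White, at a ratio of 0.961 (0.942 to 0.980), and 1.51 times as high in wild boar as in Large White (1.49 to 1.54). Of the endothelial marker reads in Large White, miR-99a alone gave 91850 of 172684. Without miR-99a, left out after its values were seen, the Enshi black over Large White ratio was 1.14 (1.10 to 1.18) for miR-222 and 0.704 (0.690 to 0.719) for miR-221-3p. The wild boar over Large White ratio was then 1.62 for miR-222 and 1.37 for miR-221-3p. Per 1000 smooth muscle and stellate marker reads, miR-221-3p had 68.4, 77.7 and 125.0 and miR-222 had 30.5, 21.3 and 40.8. The level of miR-221-3p in Enshi black over Large White thus lay above 1 by TMM and below 1 against either of these marker lists, and at 2.30 against the hepatocyte, 2.14 against the leucocyte and 1.46 against the red cell markers. In wild boar over Large White it stood at 2.73, 9.59 and 2.89 against those 3 lists. By contrast, miR-222 was lowest in the Large White library against each list. Wild boar was highest for miR-221-3p against each list. It was also highest for miR-222 against each list but the hepatocyte markers, where Enshi black was. The leucocyte and red cell lists rest largely on a single miRNA each. Of the leucocyte marker reads, miR-142-3p gave 95697 of 118360 in Large White and 19777 of 31018 in wild boar. Of the red cell marker reads, miR-451 gave 20653 of 30197 in Large White and 21548 of 26257 in wild boar.

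In the list of 12 stellate cell and fibrosis miRNAs, miR-222 was the one entry called higher in wild boar over Large White after TMM, which as a share is close to the 11.5% of all miRNAs. miR-21, which is widely expressed and linked to fibrosis, and miR-29b, a repressor of collagen genes, were called lower there, and miR-29b also in Enshi black over Large White. These 2 of 12 and 1 of 12 compare with the 13.5% and 10.1% of all miRNAs called lower in those pairs. On library totals the calls were others. Called higher were then miR-143-3p, miR-222 and miR-199a-5p in Enshi black over Large White, with none lower and miR-29b at a log2 ratio of -0.52. In wild boar over Large White miR-221-3p and miR-222 were called higher and miR-29b lower on totals, while miR-21 had -0.69 and was not called. Of all miRNAs on totals, 27.4% were called higher in Enshi black over Large White and 21.6% in wild boar over Large White. The 3 of 12 and 2 of 12 entries called higher thus lay near or below these shares. Without miR-221-3p and miR-222 the counts called higher on totals were 2 of 10 and 0 of 10. The shares called lower were 2.88% and 9.13%. After TMM, other abundant entries had log2 ratios in wild boar over Large White of -0.08 for miR-29a, 0.02 for miR-143-3p and 0.22 for miR-199a-5p. Without the members the list's median after TMM was -0.02 in Enshi black over Large White and -0.03 in wild boar over Large White. On totals it was 0.62 and 0.45, and in these pairs it was close to the medians of all miRNAs on each scale. In Enshi black over wild boar the list lay further from all miRNAs. Its median there was 0.20 after TMM and 0.36 on totals, against -0.01 and 0.15 for all. Of its other entries, 5 are also the smooth muscle and stellate markers.

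Over the 3 libraries, miRNAs were ranked by how close their log2 levels, centred on their own mean, lay to those of a member. This distance rests on 3 points per miRNA, and a change of scaling moves all miRNAs together. Nearest to miR-221-3p were miR-324 at a root mean square distance of 0.04, miR-23b at 0.05, miR-92a at 0.06, miR-455-3p at 0.07 and let-7e at 0.07. Nearest to miR-222 were miR-148b-5p at 0.03, miR-30c-5p at 0.05, miR-139-5p at 0.06, miR-95 at 0.07 and miR-126-5p, an arm of the endothelial mir-126, at 0.09. Of those nearest to miR-221-3p, miR-23b, miR-92a and let-7e share reads with a relative, and none of those nearest to miR-222 does. With as few as 51 reads for miR-148b-5p and 303 for miR-324 in the library where each was lowest, counting error was wider than their distances. Among these nearest miRNAs, only miR-92a and miR-126-5p had a log2 counting interval narrower than the distance, taken at their lowest count. The widths were 0.04 against 0.06 for miR-92a and 0.07 against 0.09 for miR-126-5p. The order within either set is therefore not resolved. The other arm of mir-126 did not have the pattern of miR-126-5p: miR-126-3p stood at 14279 CPM in Enshi black, 8930 CPM in Large White and 10187 CPM in wild boar, against 2005, 1149 and 1982 CPM for miR-126-5p. miR-92a had 5258, 4166 and 7451 CPM, highest in wild boar and lowest in Large White. Its log2 ratio was 0.34 in Enshi black over Large White and -0.50 in Enshi black over wild boar.

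By these distances the members were not each other's nearest miRNAs. miR-221-5p was 9th of 207 from miR-221-3p, at 0.12, and miR-222 was 56th, at 0.29, against a median of 0.41 for all. From miR-222, miR-221-3p was 39th, against a median of 0.51. miR-221-5p lay between the main strands, at 0.12 from miR-221-3p and 0.17 from miR-222. On the log2 scale its counting interval in Large White, 229 to 294 reads, was wider than either distance. Ranks that involve miR-221-5p are therefore not resolved.

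**Figure D5:**
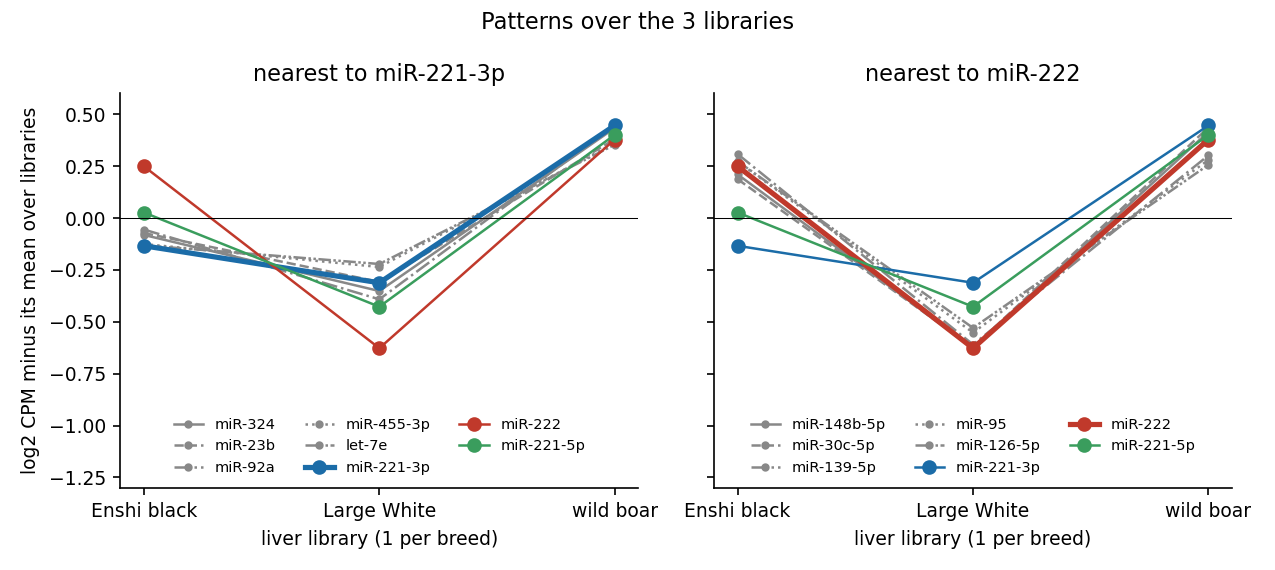
Log2 CPM of each miRNA minus its mean over the 3 libraries, for the members (coloured) and the 5 miRNAs nearest to miR-221-3p (left) and to miR-222 (right). Lines only join the values of 1 miRNA. All are highest in wild boar or Enshi black and lowest in Large White, and miR-222 with its nearest miRNAs lies above 0 in Enshi black where miR-221-3p lies below.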

How the data were processed

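Total RNA of the livers was made into small RNA libraries after gel selection and read as single ends with Illumina chemistry, per the labels' protocols. Sscrofa 10.2 is the build listed by the submitters' processing notes. Which aligner and counter made the values is not given in the sources used here. As deposited, the files hold expected counts per mature name and precursor, with 486 rows each, and RPM of the same counts as deposited by the authors, which were not used. Count data of whole numbers had been assumed in the design; the deposited expected counts were summed over precursors and rounded. Rows of 6 names that repeat another name's reads were left out, leaving 405 miRNAs, of which 208 with a mean CPM of at least 10 were compared. TMM factors came from edgeR 4.0.16 in R 4.3.3 and were 1.20 (Enshi black), 0.772 (Large White) and 1.08 (wild boar). Levels have exact Poisson, ratios between libraries exact conditional-binomial, shares Clopper-Pearson, and odds ratios and ratios of proportions Wald intervals on the log scale. Distances and the ranges of arm odds used counts plus 0.5. The ratio rule was tested on data simulated with counting noise only. These data had no spread between animals and no fold near the 2-fold threshold, so calls near 2-fold were not tested. Reads carry no molecular identifiers. The labels give no batch. Alternatives were other scalings, among them DESeq2 1.42.0 size factors, other expression minimums, a 4-fold threshold and unrounded counts.

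The members, the lists, the transcript-sharing pairs and the naming rule (members, the 5 nearest miRNAs of each main strand, up to 4 entries per list by abundance, and the narrowest and widest pairs) were chosen with earlier results of these data known. Other miRNAs are named because they were called in a small count, and were picked after their values were seen, as were the ratios to marker reads and the endothelial ratio without miR-99a. An entry that found no name in the files (miR-223, and miR-25, miR-93, miR-660 and miR-200b of the pairs) was not analysed here. Mature sequences were not used here. A list of growth-related miRNAs that had been planned is not reported here.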

Additional observations from a re-analysis of the deposited data

How the results depend on the processing

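The rank of a member's ratio cannot change with the scaling, and its calls can. On library totals the log2 ratios that came past 2-fold were 1.24 for miR-221-3p and 1.31 for miR-221-5p in wild boar over Large White, and 1.51 for miR-222 and 1.09 for miR-221-5p in Enshi black over Large White. On totals without miR-122 they were 1.19, 1.26 and, for miR-222 in Enshi black over Large White, 1.35. The one call made after TMM, miR-222 in wild boar over Large White at 1.01, was lost at 0.96 when TMM used only miRNAs of at least 10 mean CPM, and under a 4-fold threshold (1.01). DESeq2 size factors changed no member's call. miR-222 in Enshi black over wild boar turned from -0.13 to 0.028 on library totals. Unrounded counts left the arm shares and the proportion of miR-221-3p to miR-222 as given. No paired analysis was possible because each breed has 1 library, and no library could be left out for the same reason.

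Counts of called miRNAs moved with the settings. Those higher in Enshi black over Large White went from 6 to 57 on totals, 37 without miR-122, 13 with no filter, 1 at 100 CPM and 1 at 4-fold, and those lower from 21 to 6, 8, 39, 12 and 1. In wild boar over Large White, under the same settings in the same order, the higher ones went from 24 to 45, 43, 38, 13 and 4. The lower ones there went from 28 to 19, 19, 47, 18 and 5. In Enshi black over wild boar the higher ones went from 13 to 15, 13, 21, 6 and 1, and the lower ones from 13 to 7, 12, 29, 8 and 2. At a minimum of 100 CPM, 4 of the 5 miRNAs nearest to miR-221-3p and 4 of the 5 nearest to miR-222 stayed the nearest. Without miR-122 in the total, the abundant members took 0.891%, 0.501% and 1.19% of the reads.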

Other observations

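The minor strand miR-221-5p lay nearest to miR-27b-3p, at a root mean square distance of 0.04, then to miR-92a at 0.06, miR-324 at 0.08, miR-181a at 0.09 and miR-331-5p at 0.09. Of these, miR-27b-3p, miR-92a and miR-181a share reads with a relative. miR-92a and miR-324 were also among the 5 nearest to miR-221-3p. With 584, 260 and 687 reads, the counting interval of miR-221-5p was wider than its distances to them, so the order of its neighbours is not resolved at this depth. In 7 of the 57 precursors with both arms the 5p share was lower than that of mir-221 in each library.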
